A study of Mus musculus with 46 samples.

Results

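Interferon-induced genes were followed in the 2 macrophage populations of mouse gliomas. The set holds 39 genes chosen by symbol from a written list: the ligand Ifnb1, 4 transcription factors of the pathway (Irf1, Irf7, Irf9 and Stat2) and 34 genes that interferon switches on. All 39 were found among the 23329 genes of the deposited count table, and all 39 passed the filter on low counts in each fit.

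The study used 23 glioma-bearing mice and sequenced 2 sorted populations from each, which gives 46 libraries. Every mouse, vehicle included, was nTVA Ink4a/Arf KO/KO and was injected in the brain at 5 to 6 weeks of age with DF1 cells carrying RCAS-PDGFB-HA. DF1 is a chicken fibroblast line that sheds the RCAS virus, and that virus enters only cells with the TVA receptor, so the tumour arises from the host's own cells. The sort took Cd45+Cd11b+ cells without Ly6c and Ly6g and split them by Cd49d: the Cd49d- cells are the microglia (MG) and the Cd49d+ cells the bone marrow-derived macrophages (BMDM). Mice belonged to 7 stages. They were vehicle (4 mice), 5 days of BLZ945 (4 mice), 5-day IR (2 mice) and 5-day IR+BLZ945 (3 mice). The others were tumours that had recurred under BLZ945 (2 mice), IR (4 mice) or both (4 mice). BLZ945 is a small-molecule inhibitor of the CSF-1 receptor, on which macrophages depend, and IR is the radiation of the study's title. The sources used here do not state the age at each stage, the dose or the radiation schedule. They also do not state from which point the 5 days of IR were counted. Each library is 1 mouse.

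Type I interferons such as interferon beta, the product of Ifnb1, bind the receptor pair IFNAR1 and IFNAR2. The receptor's kinases JAK1 and TYK2 then activate STAT2, which together with IRF9 forms part of a complex that binds the interferon-stimulated response element (ISRE) in the promoters of its target genes. Interferon gamma acts through another receptor and on promoters with a gamma-activated site (GAS), and it is the stronger inducer of IRF1 and of the guanylate-binding proteins. Microglia and macrophages both respond to, and can make, type I interferon.

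The promoters of the set carried the ISRE letters more often than promoters at large. RefSeq start sites on GRCm38.p6 gave a window of 300 bases (250 before the start and 50 from it on) for 31 of the 39 genes. The ISRE core GAAANNGAAA, searched on both strands, lay in the window of 18 of these 31 genes (58.1%), against 3.99% of all 27025 genes with such a window. The GAS core TTCNNNGAA, which reads the same on both strands, lay in 8 of 31 (25.8%), against 9.55% of all genes. Both cores were present in 5 genes (Bst2, Eif2ak2, Ifitm3, Igtp and Oas1a), and they overlapped in Bst2 and Ifitm3. ISRE matches began between base -222 and base 33 relative to the start. The 250 bases before the start are shown for 5 genes on which the results turn, with every ISRE match in capitals (a match on the other strand reads TTTCNNTTTC), and for Ifnb1, whose window held no match to either core. They lie at chr4:156200819-156201068, minus strand (Isg15), chr19:34583279-34583528, plus strand (Ifit3), chr12:26456453-26456702, minus strand (Rsad2), chr5:120907526-120907775, minus strand (Oas1a), chr3:142620413-142620662, plus strand (Gbp2) and chr4:88522795-88523044, minus strand (Ifnb1), and each reads 5′ to 3′ toward its gene.
Isg15: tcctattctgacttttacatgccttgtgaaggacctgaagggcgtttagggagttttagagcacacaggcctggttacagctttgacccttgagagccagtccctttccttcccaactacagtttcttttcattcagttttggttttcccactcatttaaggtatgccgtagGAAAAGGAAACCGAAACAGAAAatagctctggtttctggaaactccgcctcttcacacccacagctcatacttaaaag
Ifit3: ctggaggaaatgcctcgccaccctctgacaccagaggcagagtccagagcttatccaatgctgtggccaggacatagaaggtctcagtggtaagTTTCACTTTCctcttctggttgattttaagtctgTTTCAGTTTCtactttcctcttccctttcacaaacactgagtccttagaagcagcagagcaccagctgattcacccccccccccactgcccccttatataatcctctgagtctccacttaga
Rsad2: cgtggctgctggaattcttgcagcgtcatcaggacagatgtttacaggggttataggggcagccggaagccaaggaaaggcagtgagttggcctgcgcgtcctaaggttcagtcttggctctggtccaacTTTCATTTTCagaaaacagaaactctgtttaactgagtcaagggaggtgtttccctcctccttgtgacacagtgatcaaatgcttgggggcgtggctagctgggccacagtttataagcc
Oas1a: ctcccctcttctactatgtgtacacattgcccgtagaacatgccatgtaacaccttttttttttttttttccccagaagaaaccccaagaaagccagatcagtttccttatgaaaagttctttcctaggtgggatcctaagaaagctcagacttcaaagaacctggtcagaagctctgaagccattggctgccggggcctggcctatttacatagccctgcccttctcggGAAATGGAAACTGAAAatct
Gbp2: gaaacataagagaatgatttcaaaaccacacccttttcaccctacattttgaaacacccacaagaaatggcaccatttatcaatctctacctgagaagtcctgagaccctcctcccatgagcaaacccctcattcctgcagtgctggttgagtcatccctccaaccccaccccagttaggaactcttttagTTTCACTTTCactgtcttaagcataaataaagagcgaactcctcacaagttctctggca
Ifnb1: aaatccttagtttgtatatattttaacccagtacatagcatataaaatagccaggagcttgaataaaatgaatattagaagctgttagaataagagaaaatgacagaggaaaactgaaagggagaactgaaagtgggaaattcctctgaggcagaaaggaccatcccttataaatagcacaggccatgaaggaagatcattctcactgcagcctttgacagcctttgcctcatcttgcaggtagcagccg
In Isg15 the matches overlap in a run that begins 78 bases before the start. Ifit3 has 2 separate matches, which begin at bases -156 and -122, and Oas1a has 2 overlapping ones close to the start. Rsad2 and Gbp2 have 1 each, beginning at bases -120 and -59. A match describes the letters in the window and does not show that a factor bound there.

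Levels are given as log2 CPM, that is, counts scaled to a common library total, on totals adjusted by TMM, with 1 count added as a prior, so a library without any read of a gene is listed at -3.53. A level serves to compare 1 gene between libraries and not different genes with each other. Fold changes are fitted log2 differences with their standard error (SE) from edgeR's quasi-likelihood test, and passing means an adjusted p below 0.05 (Benjamini-Hochberg over all genes of the fit). Total counts ran from 3007379 to 16993474 per library. In 5 libraries fewer than 11000 genes reached 10 counts: MG of mouse 65971 (5-day IR+BLZ945, the shallowest library), MG of mouse 68344 (recurrent IR), and BMDM of mice 122, 124 (5-day BLZ945) and 65698 (5-day IR). In 1 mouse, 65698, the MG and the BMDM library differed in their sex-linked transcripts, against their shared label. These 6 libraries are the doubted ones, and results that rest on them are given with and without them. All 4 mice of recurrent IR had Y-linked reads and all 4 of 5-day BLZ945 had Xist, so sex and stage are partly confounded there. Among abundant transcripts, Lars2 lay between 11.43 and 15.22 log2 CPM in all recurrent libraries, against 2.99 to 7.76 in BMDM of vehicle and 6.15 to 13.87 in MG of vehicle. Malat1 lay between 7.74 and 10.79 in recurrent BMDM against 11.32 to 13.20 in BMDM of vehicle, and between 7.88 and 10.29 in recurrent MG, overlapping the 8.94 to 10.37 of MG of vehicle. The sort marker held in the transcripts. Itga4, which encodes Cd49d, lay between 0.60 and 3.35 log2 CPM in all MG and between 4.94 and 7.55 in all BMDM libraries. The sum of 11 microglia markers was 5350 to 10800 CPM in BMDM of vehicle, against 18600 to 39900 in MG. Cdkn2a, the gene of the deleted Ink4a/Arf locus, stayed at or below 1.34 log2 CPM in every library.

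In vehicle-treated tumours the interferon-induced genes were lower in MG than in BMDM. The fitted difference pointed to lower levels in MG for 37 of 39 genes, with a median of -1.04 on the log2 scale, against 0.09 over all genes. It passed for 12 genes (30.8%), 11 lower and 1 higher in MG, while 9.14% of all genes tested passed. Ifitm3, whose product blocks virus entry at endosomes, lay at 5.80, 7.28, 7.79 and 8.18 log2 CPM in the 4 MG libraries and at 8.75, 9.47, 9.51 and 9.68 in the BMDM libraries. The ranges did not overlap, and the difference was -1.90 (SE 0.43, adjusted p = 0.00273). Samd9l, an inhibitor of virus replication, lay at 3.21 to 5.26 in MG and at 6.79 to 7.0 in BMDM (difference -2.58, SE 0.57, adjusted p = 0.00192). Irf7, the factor that amplifies interferon production, ran from 5.31 to 6.85 in MG and from 7.26 to 8.98 in BMDM (difference -1.92, SE 0.44, adjusted p = 0.00295). Ifi44, a protein of unsettled function, differed by -2.76 (SE 0.63, adjusted p = 0.00260), and Slfn5 by -2.23 (SE 0.63, adjusted p = 0.0164), though the ranges of Slfn5 overlapped and it did not pass with the mouse as a replicate block (adjusted p = 0.0718). The others that were lower were Oasl2, Ifit2, Usp18, Rtp4, Oas1a and Irf9, with differences from -0.72 (Irf9) to -1.92 (Oasl2). The 4 interferon-inducible GTPases pointed lower as well (-0.33 to -0.53), and none of them passed. Ifnb1 went the other way and is described at the end. Calls of Ifnb1, Ifitm3, Samd9l and Ifi44 held when any 1 mouse was left out. The count of 12 then became 4 (without mouse 65966), 5 (without 41), 6 (without 65967) or 9 (without 78), and it was 21 without the doubted libraries. With the mouse as a replicate block 15 genes passed. BMDM were also richer in markers of other cells: the summed level of 8 conventional dendritic cell markers was 792 to 1300 CPM in BMDM against 18.1 to 32.8 CPM in MG of vehicle, and that of 7 Ly6C-high monocyte markers 795 to 1330 against 26.1 to 101 CPM. MG were richer in others: 8 astrocyte markers summed to 408 to 2390 CPM against 41.9 to 144 in BMDM, 12 glioma and oligodendrocyte precursor markers to 66.3 to 109 against 9.99 to 19.6, and 11 plasmacytoid dendritic cell markers, of the blood cell that makes most interferon, to 804 to 1200 against 531 to 637, with Klk1 at 0 in MG. A summed level does not show which cells held the reads, and the part of these markers in the difference was not tested. In bulk libraries fewer cells of a type and less RNA per cell cannot be told apart.

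**Figure D1:**
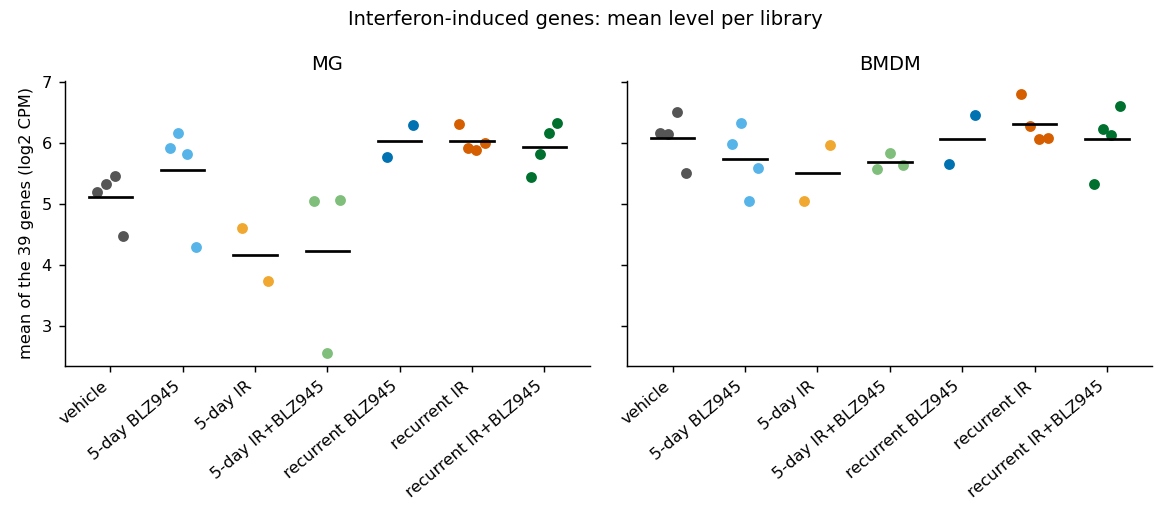
Mean level of the 39 interferon-induced genes (log2 CPM, vertical axis) in each library, by stage, for MG (left) and BMDM (right); points are mice and bars are group means. In MG the vehicle libraries span 4.48 to 5.45 and all but 1 of the recurrent libraries lie above them, while in BMDM vehicle (5.51 to 6.50) and recurrence (5.32 to 6.80) share 1 range.

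In MG, 5 days of BLZ945 split the mice. The mean level of the 39 genes was 5.91, 6.16 and 5.82 log2 CPM in mice 122, 123 and 124, all above the vehicle range of 4.48 to 5.45, and 4.30 in mouse 65975, below it. The fitted change from vehicle pointed up for 33 of 39 genes, with a median of 0.65 against 0.01 over all genes. None passed, and 0.303% of all genes did; 11 members had an unadjusted p below 0.05, and DESeq2 called 5. Stat2, the partner of IRF9 in the ISRE-binding complex, had the smallest p: it lay at 5.66 to 5.77 in vehicle, at 7.12, 7.31 and 7.48 in 3 treated mice and at 5.5 in mouse 65975 (difference 1.38, SE 0.30, adjusted p = 0.0528). Irgm1, a GTPase that acts on the membranes of pathogen vacuoles, followed with 5.88 to 6.56 in vehicle and 6.22, 7.87, 8.05 and 8.20 under BLZ945 (difference 1.50, SE 0.37, adjusted p = 0.0723). Again the low value was that of mouse 65975. Gbp2, a guanylate-binding protein, spread widest, at 3.37 in mouse 65975 and at 6.97, 8.0 and 8.19 in the others, against 4.29 to 5.26 in vehicle (difference 2.55, adjusted p = 0.121). Irf1 lay at 5.34 in mouse 65975 and between 9.10 and 9.59 in the other treated mice, with 6.17 to 8.61 in vehicle. Isg15 was 4.25, 4.66, 4.85 and 5.31 after BLZ945 and 4.02, 5.33, 5.45 and 5.69 in vehicle, and the groups overlapped. Without mouse 65975 a count of 8 genes passed, among them Stat2 (adjusted p = 0.000213), Irgm1 (0.00419), Gbp2 (0.0113) and Irf7 (0.0288). That mouse also had a number of another style (5 digits, against 3 digits for mice 122 to 124). Vehicle was split as well (41 and 78 against 65966 and 65967), and all mice of the other stages had 5 digits. Number style is thus partly confounded with stage. With number style as a term in the fit none passed, and no cause of the split was tested. Malat1 was 10.55 to 12.45 log2 CPM in these 4 libraries against 8.94 to 10.37 in vehicle, and its part was not tested.

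After 5 days of IR most members pointed lower in the 2 MG libraries. The mean of the 39 genes was 3.73 and 4.60 log2 CPM against 4.48 to 5.45 in vehicle, the higher of them inside the vehicle range, and 33 of 39 fitted changes pointed down, with a median of -0.98 against 0.01 over all genes. None passed (1.99% of all genes did), 10 had an unadjusted p below 0.05, and DESeq2 called 3. Without the doubted libraries only mouse 65972 was left in this group, and the median change was -1.61. Isg15, the ubiquitin-like modifier, was 3.10 and 4.02 against 4.02 to 5.69 in vehicle (difference -1.58, SE 0.50, adjusted p = 0.114). Ifitm3 was 4.24 and 6.28 against 5.80 to 8.18 (difference -1.84, SE 0.59, adjusted p = 0.117). The ranges touched or overlapped through vehicle mouse 65967, the lowest of its group, and without that library Isg15 (adjusted p = 0.0208) and Ifitm3 (0.0177) passed, within a count of 4. All 5 nucleic acid sensors pointed down, with a median of -0.57; the largest fitted change among them was that of Zbp1, the sensor of left-handed nucleic acid, at -2.27. The regulators were mixed: Irf7 was 3.68 and 5.59 against 5.31 to 6.85 (difference -1.28, adjusted p = 0.344), whereas Stat2 was 5.59 and 5.85 against 5.66 to 5.77 and Irf1 was 6.94 and 7.99 against 6.17 to 8.61. Gbp2 was 3.38 and 3.73, below every vehicle library, but its change did not pass (-1.35, adjusted p = 0.617). In these 2 libraries Malat1 was 10.89 and 11.53 log2 CPM against 8.94 to 10.37 in vehicle. The glioma and oligodendrocyte precursor markers summed to 10.5 and 22.4 CPM against 66.3 to 109, with Olig2, Gpr17 and Nkx2-2 among those at 0, and the astrocyte markers to 2050 and 2600 against 408 to 2390. Their part in the lower values was not tested.

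After 5 days of IR and BLZ945 together the set stood near vehicle in 2 of 3 mice. The mean level was 5.05 and 5.06 log2 CPM in mice 65696 and 67537. It was 2.56 in mouse 65971, whose library of 3007379 counts held no read of 9 of the 39 genes. Only 9181 genes reached 10 counts in that library, and the cause of the missing reads was not tested. Only Ifnb1 fell (1 of 39, 2.56%), while 13.4% of all genes passed, and the median change was 0.06. In these MG libraries 6 choroid plexus markers summed to 22.3 to 1750 CPM (median 1620) against 0.892 to 6.06 in vehicle, neuron markers to 23.9 to 41.3 against 1.71 to 8.41 and conventional dendritic cell markers to 71.0 to 97.7 against 18.1 to 32.8. Glioma and oligodendrocyte precursor markers were lower, at 20.5 to 58.4 against 66.3 to 109 (Olig2 and Gpr17 among those at 0), and Malat1 was 10.84 to 11.22 log2 CPM against 8.94 to 10.37; their part was not tested. Isg15 was 4.44, 4.44 and 5.55, Irf7 was 5.86, 6.89 and 6.89, Ifit3 was 5.77, 6.32 and 6.37, and Ifitm3 was 7.15, 7.59 and 7.93, all overlapping vehicle. Against BLZ945 alone, 5 members were lower and none higher (12.8%; 9.84% of all genes passed): Ifnb1, Gbp2 (-3.14, SE 0.87, adjusted p = 0.0292), Xaf1 (-2.54, SE 0.79, adjusted p = 0.0457), Irgm1 (-1.50, SE 0.41, adjusted p = 0.0282) and Stat2 (-1.05, SE 0.33, adjusted p = 0.0482). The ranges of all but Ifnb1 overlapped, because mouse 65975 lay low in the BLZ945 group. This count was 10 without mouse 65975, 0 to 3 without any of mice 122, 123, 124, 65696 and 65971, and 0 without the doubted libraries. With number style as a term none passed, and the median change was -0.07 against -0.7 in the main fit. Against IR alone none passed (0.227% of all genes did), though 31 of 39 pointed up with a median of 0.75 against 0.10 over all genes. Ifitm3 had the smallest p after Ifnb1 there (difference 2.05, SE 0.61, adjusted p = 0.118), 12 members had an unadjusted p below 0.05, and DESeq2 called 7.

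In recurrent tumours the set lay above vehicle in MG after each treatment. The mean of the 39 genes was 5.76 and 6.29 log2 CPM in recurrence under BLZ945, 5.88 to 6.31 under IR, and 5.44 to 6.33 under IR+BLZ945, against 4.48 to 5.45 in vehicle; only mouse 67169, at 5.44, fell inside the vehicle range. Fitted changes pointed up for 36, 37 and 33 of 39 genes, with medians of 0.88, 0.96 and 0.81, against 0, 0 and -0.02 over all genes. These 3 comparisons share the 4 vehicle libraries. Every recurrent library lay above every vehicle library for 18 members in BLZ945 recurrence (46.2%, against 12.4% of all genes), for 24 in IR recurrence (61.5%, against 10.2%) and for 13 in IR+BLZ945 recurrence (33.3%, against 9.13%); 1 member, Parp14, lay wholly below in the last.

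Few of these differences passed the test singly. After BLZ945, 2 of 39 rose (5.13%; 3.53% of all genes passed), after IR 1 (2.56%; 4.33% of all genes) and after IR+BLZ945 5 (12.8%; 4.82% of all genes). The first and second shares are near the background. The members with an unadjusted p below 0.05 numbered 16, 18 and 15.

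Among the regulators, Irf7 rose in BLZ945 recurrence: it was 8.02 and 8.25 log2 CPM against 5.31, 5.97, 6.49 and 6.85 in vehicle (difference 1.93, SE 0.53, adjusted p = 0.0477). In IR recurrence it was 7.32, 7.43, 7.45 and 7.58, and in IR+BLZ945 recurrence 6.96, 7.49, 7.95 and 8.28. All 10 recurrent libraries thus exceeded the highest vehicle library. Stat2 differed less from its vehicle values of 5.66 to 5.77: it was 5.91 and 6.51 (BLZ945), 5.80 to 6.23 (IR) and 5.10 to 5.94 (IR+BLZ945). Irf1 and Irf9 overlapped vehicle in each recurrence. Of the effectors, Ifitm3 rose in BLZ945 recurrence (9.29 and 9.56 against 5.80 to 8.18; difference 1.98, SE 0.52, adjusted p = 0.0354) and in IR+BLZ945 recurrence (8.57, 9.13, 9.28 and 9.38; difference 1.60, SE 0.45, adjusted p = 0.0428). In IR recurrence it was 8.40, 8.90, 9.03 and 9.19, also above every vehicle library.

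Rsad2, which encodes viperin, an enzyme that makes a chain-ending nucleotide, rose in IR recurrence: 6.68, 6.89, 7.03 and 8.12 against 3.81, 5.35, 5.35 and 5.71 in vehicle (difference 2.18, SE 0.49, adjusted p = 0.0113). It passed in 7 of 8 fits that left out 1 library and not without vehicle mouse 41 (adjusted p = 0.0581). In IR+BLZ945 recurrence 4 further genes rose. Rtp4, a chaperone of membrane receptors, was 5.93, 7.12, 7.49 and 7.79 against 4.32 to 5.87 (difference 1.75, SE 0.44, adjusted p = 0.0290). Ifit3, which binds foreign RNA together with IFIT1, was 6.57, 7.59, 7.77 and 7.81 against 4.95 to 6.43 (difference 1.52, SE 0.37, adjusted p = 0.0272). Oas1a, a synthetase of the second messenger that starts RNase L, was 7.15 to 7.53 against 4.21 to 6.52 (difference 1.51, SE 0.43, adjusted p = 0.0453). Isg15 was 6.01, 6.25, 6.85 and 7.12 against 4.02, 5.33, 5.45 and 5.69 (difference 1.36, SE 0.38, adjusted p = 0.0439). None of these ranges overlapped that of vehicle. Leaving out 1 library at a time, the other calls against vehicle passed as follows: Irf7 in 0 of 6 fits, Ifitm3 in 1 of 6 (BLZ945) and 1 of 8 (IR+BLZ945), Oas1a in 1 of 8, Isg15 and Rtp4 in 2 of 8 each and Ifit3 in 3 of 8. In the other recurrences Isg15 was 6.50 and 6.84 (BLZ945) and 5.91 to 7.04 (IR), and Ifit3 was 6.73 and 7.34, then 6.91 to 7.22, likewise above vehicle without passing. Reads of Ifit3 and Oas1a could be shared with close paralogs, which the counting cannot resolve.

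All 5 OAS genes pointed up in each MG recurrence, with median changes of 2.48, 1.47 and 1.51 and, in BLZ945 recurrence, all 5 above every vehicle library; the 1 call among them was Oas1a in IR+BLZ945 recurrence. The 3 IFIT genes had medians of 0.62, 1.16 and 0.51, the ISG15 system (Isg15, its protease Usp18 and the ligase Herc6) 1.13, 1.08 and 1.05, and the 5 nucleic acid sensors 0.88, 0.80 and 0.49. Of 10 restriction factors, all 10 pointed up in BLZ945 and in IR recurrence and 9 in IR+BLZ945 recurrence (medians 0.86, 1.37 and 0.79). The 4 GTPases had medians of 0.88, 0.59 and 0.75, and Gbp2 was 5.5 and 6.00, 5.52 to 5.97 and 5.29 to 6.69 in the 3 recurrences against 4.29 to 5.26. Whether the families differ from each other was not tested.

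**Figure D2:**
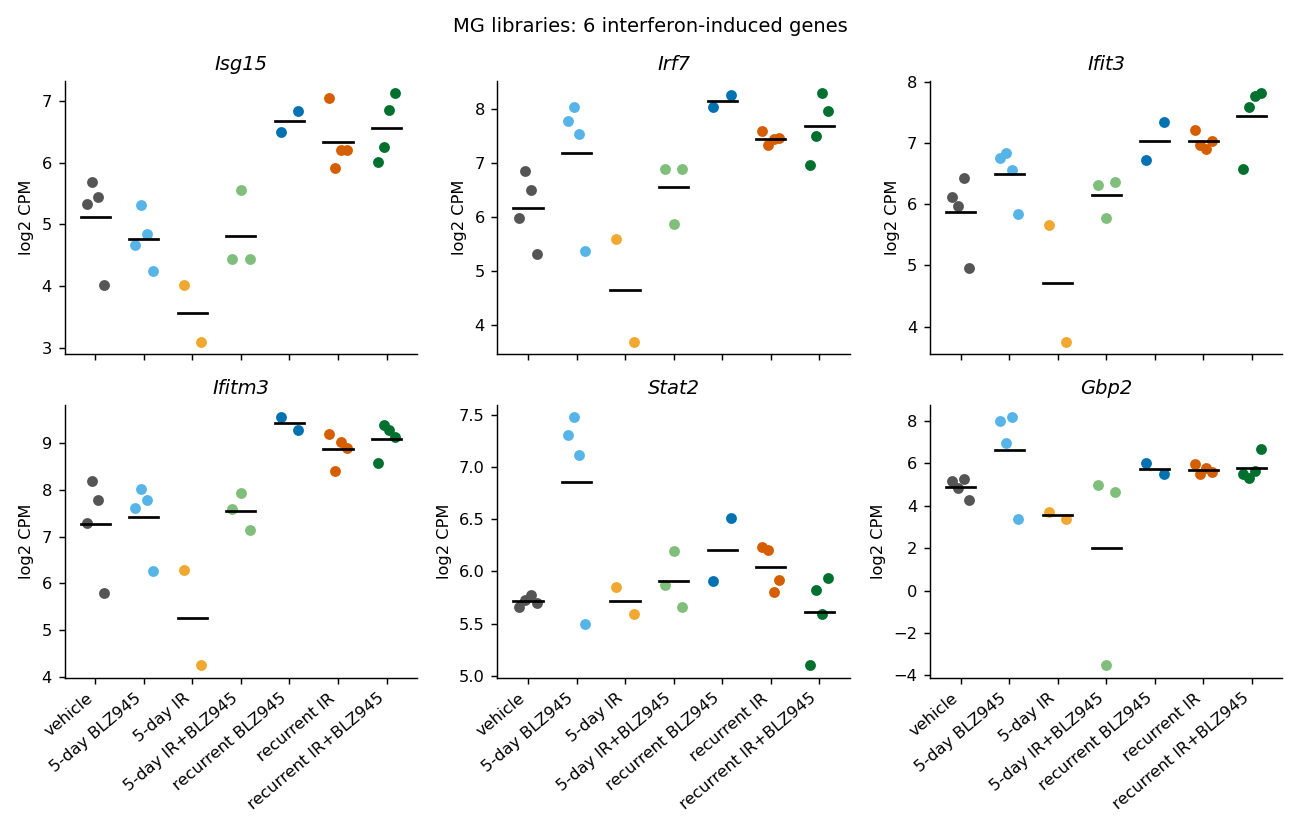
Levels (log2 CPM, vertical axes) of 6 interferon-induced genes in the MG libraries of the 7 stages; points are mice and bars are group means. Isg15, Irf7, Ifit3 and Ifitm3 lie above vehicle in all 10 recurrent libraries, whereas Stat2 and Gbp2 are highest in 3 of the 4 mice given BLZ945 for 5 days.

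Other features of the MG libraries moved with recurrence. The summed level of 12 glioma and oligodendrocyte precursor markers was 490 to 942 CPM (BLZ945), 422 to 891 (IR) and 109 to 420 (IR+BLZ945), against 66.3 to 109 in vehicle, with no marker at 0. That of 10 blood-derived macrophage markers was 910 to 1270, 734 to 1010 and 458 to 1010 against 211 to 1190 in vehicle, while Itga4 stayed between 1.14 and 3.22 log2 CPM. The 11 microglia markers summed to 8670 to 14100, 15100 to 20800 and 16800 to 24900 CPM against 18600 to 39900 in vehicle. Plasmacytoid dendritic cell markers ranged over 637 to 1290 CPM against 804 to 1200, with Klk1 at 0 in vehicle and in the IR and IR+BLZ945 recurrences. Neuron markers summed to 17.1 to 59.7 CPM over the 3 recurrences against 1.71 to 8.41 in vehicle, and choroid plexus markers to 7.42 to 58.8 against 0.892 to 6.06 (Ttr and Kl at 0 in BLZ945 recurrence, Kl in IR+BLZ945 recurrence). The part of other cells, of Lars2 and Malat1, or of sex in the recurrence values was not tested, apart from a fit with the sex-linked profile as a term, in which 4, 3 and 4 members passed. Without the doubted libraries the 3 counts were 8, 9 and 13. Leaving out 1 library at a time gave 0 to 1 members for BLZ945 (0 without vehicle mice 41 or 65967 or either recurrent mouse) and 0 to 1 for IR (0 only without vehicle mouse 41). For IR+BLZ945 it gave 8 without vehicle mouse 78, 3 without mouse 67169, 1 without vehicle mouse 65966, and 0 without vehicle mice 41 or 65967 or any of mice 67543, 67947 and 68362.

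**Figure D3:**
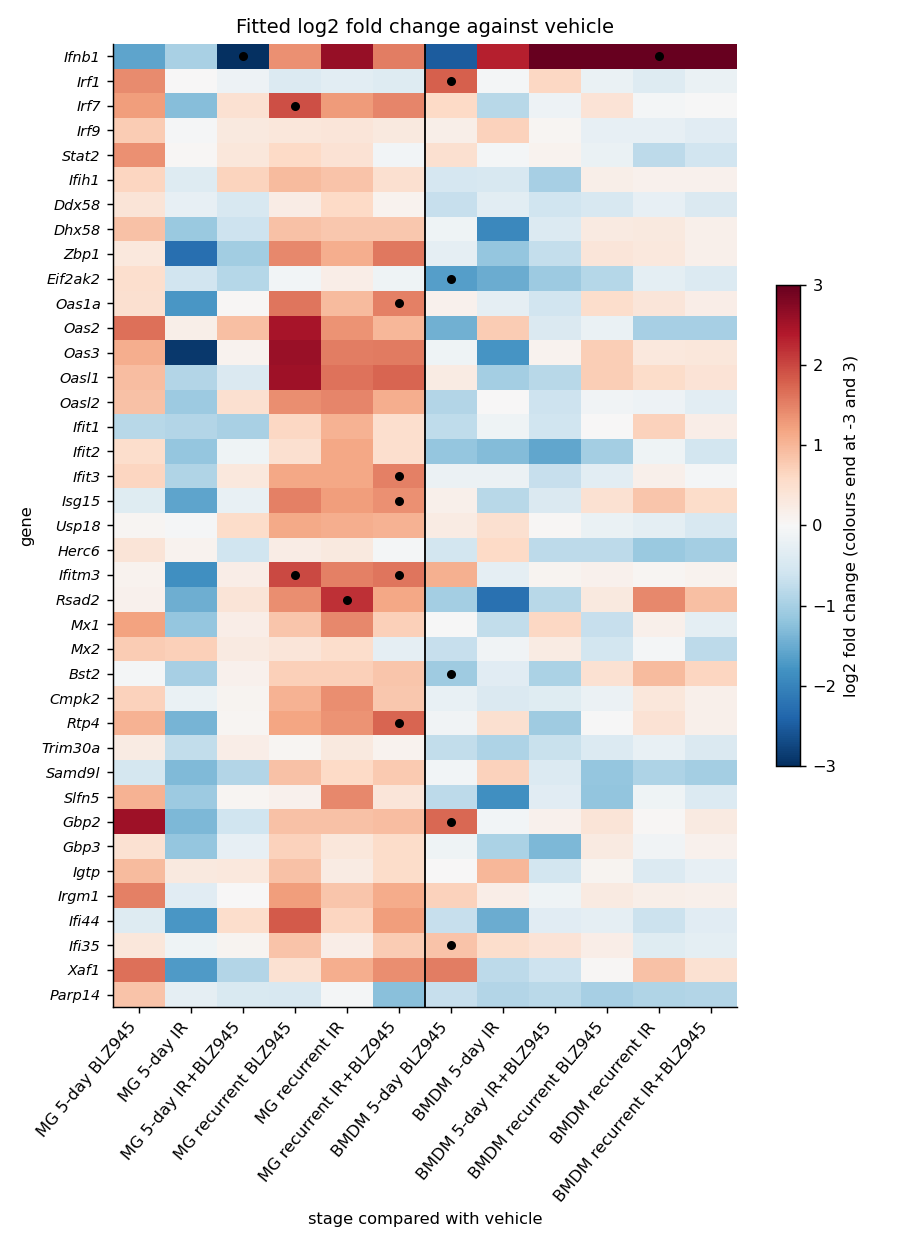
Fitted log2 fold change against vehicle for the 39 genes (rows) in 6 stages of MG and of BMDM (columns); red is higher, blue is lower, colours end at -3 and 3, and a black dot marks an adjusted p below 0.05. The recurrent MG columns are red in 33 to 37 of 39 rows with 8 dots in all, and the recurrent BMDM columns are mixed apart from Ifnb1, whose fitted values rest on near-zero counts.

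The same recurrent libraries were also compared with the 5-day stage of the same treatment. In MG, 15 of 39 members were higher in IR recurrence than at 5-day IR and none lower (38.5%, while 11.6% of all genes passed). Of the 39, 36 pointed up, with a median of 1.92 against 0.07. Oas3 differed most, at -0.59 and 0.73 log2 CPM against 4.26, 4.50, 4.58 and 4.63 (difference 4.43, SE 1.29, adjusted p = 0.0293). Rsad2 was 2.31 and 4.39 against 6.68 to 8.12 (difference 3.64, SE 0.70, adjusted p = 0.00308). Ifitm3 was higher by 3.35 (SE 0.64, adjusted p = 0.00301). The 5-day group has 2 libraries and 1 of them is doubted, so fits without either rest on 1 mouse at 5 days. Leaving out 1 recurrent library gave counts between 9 and 11. The median ran from 1.58 to 2.53 over all fits that left out 1 library, and was 2.56 without the doubted libraries. In IR+BLZ945 recurrence 11 were higher and none lower (28.2%), with a median of 0.73 against -0.08. Of all genes 28.1% passed in either direction, 1665 higher and 2412 lower. Ifnb1 is treated below; Zbp1 was -1.35, 4.90 and 5.41 at 5 days and 6.39, 7.24, 7.39 and 8.0 in recurrence (difference 2.62, SE 0.78, adjusted p = 0.0178). Xaf1 (2.27, SE 0.78, adjusted p = 0.0341) and Oasl1 (2.19, SE 0.74, adjusted p = 0.0313) followed. Zbp1, Isg15, Rtp4 and Ifnb1 passed in each of the 7 fits that left out 1 library; the count was then 5 to 11 (5 without mouse 65971 or 67537), and 6 without the doubted libraries. In BLZ945 recurrence 4 were higher and none lower (10.3%). Of all genes 8.24% passed in either direction, a near share, with 918 higher and 279 lower. The 4 were Ifnb1, Ifi44 (2.21, SE 0.62, adjusted p = 0.0310), Ifitm3 (1.87, SE 0.52, adjusted p = 0.0275) and Isg15 (1.86, SE 0.44, adjusted p = 0.0113). Isg15 was 4.25 to 5.31 at 5 days and 6.50 and 6.84 in recurrence. The BLZ945 median was 0.32, with 23 pointing up. That count was 0 without recurrent mouse 70696 and 1 without mouse 122 or 124.

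In BMDM few members differed from vehicle. The mean level was 5.51 to 6.50 log2 CPM in vehicle and 5.32 to 6.80 across the 10 recurrent libraries, and the median changes in recurrence were -0.01 (BLZ945), -0.06 (IR) and -0.05 (IR+BLZ945). Beyond Ifnb1, none passed in recurrence: the counts were 0 of 39 (0% of all genes), 1 of 39 (1.87% of all genes) and 0 of 39 (0.0275% of all genes), with 1, 5 and 3 members at an unadjusted p below 0.05 and 1, 2 and 1 called by DESeq2. Isg15 was 4.98, 5.80, 6.05 and 6.36 in vehicle and 5.95 and 6.59, 6.11 to 7.42, and 5.52 to 7.04 in the 3 recurrences. Irf7 was 7.26 to 8.98 in vehicle and 7.18 to 9.05 over all recurrent BMDM. Oas1a had the smallest p after Ifnb1 under BLZ945 (0.53, SE 0.29, adjusted p = 0.688), and Bst2 under IR+BLZ945 (0.65, SE 0.28, adjusted p = 0.423).

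The 5-day BLZ945 stage was the exception in BMDM. There 3 members rose and 2 fell (12.8%; 5.51% of all genes passed). Irf1 was 7.45, 8.89, 9.13 and 9.40 log2 CPM against 6.34, 7.17, 7.32 and 7.40 in vehicle (difference 1.79, SE 0.43, adjusted p = 0.0174). Gbp2 was 4.38, 7.25, 7.35 and 7.37 against 5.15 to 5.47, the low value again that of mouse 65975 (difference 1.72, SE 0.45, adjusted p = 0.0289). Ifi35 rose by 0.86 (SE 0.24, adjusted p = 0.0357). Eif2ak2, the kinase PKR that halts translation on double-stranded RNA, fell by 1.66 (SE 0.45, adjusted p = 0.0350), from 5.23 to 5.64 in vehicle down to 2.21 to 4.20. Bst2, the protein tetherin that holds budding virus at the membrane, fell by 1.06 (SE 0.28, adjusted p = 0.0283), with 6.46, 6.65, 6.84 and 7.64 against 7.64 to 8.70. Of these only Irf1, Ifi35 and Eif2ak2 did not overlap vehicle. The count was 1 without the doubted libraries (2 of the 4 treated ones), 0 with number style as a term, 7 without mouse 65975, 1 without mouse 122 or vehicle mouse 65966, and 2 without mouse 124 or vehicle mice 41 or 78. In the same libraries the conventional dendritic cell markers summed to 2400 to 3710 CPM against 792 to 1300 in vehicle, and the microglia markers to 1010 to 3000 against 5350 to 10800; their part in the result was not tested.

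At 5-day IR none of the members passed in BMDM (1.07% of all genes), with 7 at an unadjusted p below 0.05 and 2 called by DESeq2. Dhx58, a sensor related to RIG-I, was 2.52 and 4.93 against 4.69 to 6.85 (-1.93, SE 0.63, adjusted p = 0.128). After IR+BLZ945 none passed either (0.57% of all genes; 8 at an unadjusted p below 0.05, none by DESeq2), and Gbp3 had the smallest p (-1.34, SE 0.43, adjusted p = 0.144). The combination differed from BLZ945 alone in 1 member (2.56%; 3.58% of all genes), Xaf1, which was lower (-2.14, SE 0.59, adjusted p = 0.0484; 0 of 39 without the doubted libraries, 5 without mouse 65975), and from IR alone in none (2.36% of all genes), where Rtp4 came closest (-1.54, SE 0.42, adjusted p = 0.0521; 4 members at an unadjusted p below 0.05, DESeq2 calling 2). Between recurrence and 5 days, Bst2 was higher in recurrence after each treatment: by 1.52 after BLZ945 (SE 0.32, adjusted p = 0.00871), 1.30 after IR (SE 0.36, adjusted p = 0.0223) and 1.60 after IR+BLZ945 (SE 0.31, adjusted p = 0.00672). Recurrent BMDM held Bst2 at 8.13 to 9.07, and 5-day BMDM at 6.46 to 7.75. The call was lost without mouse 70696 after BLZ945 (adjusted p = 0.123), without mouse 65698 (0.206) or 65972, the 5-day libraries, after IR and without mouse 67537 after IR+BLZ945 (0.0521). In all, 3 members passed for BLZ945 (7.69%; 6.82% of all genes), with Irf1 lower (-1.98, SE 0.56, adjusted p = 0.0364), 9 for IR (23.1%; 12.5% of all genes) and 1 for IR+BLZ945 (2.56%; 3.69% of all genes). After IR 6 were higher, among them Rsad2 (3.67, SE 0.93, adjusted p = 0.0147) and Dhx58 (2.24, SE 0.64, adjusted p = 0.0274), and Igtp, Irf9 and Ifi35 were lower (-1.40, -0.95 and -0.88). At 5-day IR there are 2 BMDM libraries, and that of mouse 65698 is doubted. Without the doubted libraries 1 mouse was left there, and the median was 0.32 against 0.62 with all libraries.

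The gap between the populations was then followed across the stages. The median difference, MG minus BMDM on the log2 scale, was -1.04 in vehicle, -0.17 at 5-day BLZ945, -1.45 at 5-day IR and -0.85 at 5-day IR+BLZ945, and -0.11, -0.23 and -0.16 in the BLZ945, IR and IR+BLZ945 recurrences. At 5-day BLZ945, 7 members were lower and 2 higher in MG (23.1%; 21.8% of all genes, so near the background). Samd9l (-3.04, SE 0.58, adjusted p = 0.000135) and Ifitm3 (-2.89, SE 0.45, adjusted p = 5.76e-06) led those that were lower, with Ifi44, Usp18, Irf7, Ifi35 and Isg15. Eif2ak2 was higher in MG, at 4.80 to 5.93 against 2.21 to 4.20 in BMDM (1.75, SE 0.47, adjusted p = 0.00587). At 5-day IR 12 were lower and none higher (30.8%; 9.09% of all genes): Samd9l was 2.65 and 3.23 in MG and 7.24 and 7.78 in BMDM (-4.58, SE 0.89, adjusted p = 0.000678), and Ifitm3, Rtp4, Oasl2, Ifi44 and Oas1a differed by -3.49, -3.17, -3.02, -3.01 and -2.60. That count was 4 without mouse 65972 and 8 without mouse 65698. At 5-day IR+BLZ945 4 were lower (10.3%; 12.8% of all genes): Samd9l (-3.07, SE 0.68, adjusted p = 0.00191), Mx1 (-2.29, SE 0.71, adjusted p = 0.0289), Ifitm3 (-1.83, SE 0.50, adjusted p = 0.0125) and Ifi35 (-1.11, SE 0.28, adjusted p = 0.00701), with 1 to 2 passing when a mouse was left out.

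In recurrence few members differed between the populations. None passed under BLZ945 (0.0818% of all genes; none at an unadjusted p below 0.05 and none by DESeq2), 1 under IR (2.56%; 1.91% of all genes) and none under IR+BLZ945 (4.41% of all genes; 1 at an unadjusted p below 0.05, none by DESeq2). The 1 was Bst2, at 7.75 to 7.99 in MG and 8.86 to 9.07 in BMDM (-1.13, SE 0.28, adjusted p = 0.0232), a call lost whenever a mouse was left out. Ifitm3, with a difference of -1.90 in vehicle, was 8.40 to 9.19 in MG and 8.83 to 9.93 in BMDM of IR recurrence. In recurrent BMDM 11 microglia markers summed to 4860 to 7940 (BLZ945), 4900 to 11000 (IR) and 4590 to 8640 CPM (IR+BLZ945). In recurrent MG they summed to 8670 to 14100, 15100 to 20800 and 16800 to 24900 CPM. Their part in the gap was not tested. A gap that misses the threshold does not show equal levels, so the change in the gap was tested directly. The change from vehicle in MG minus that in BMDM pointed up for 37, 36 and 36 of 39 members in BLZ945, IR and IR+BLZ945 recurrence, with medians of 0.98, 0.75 and 0.86 against -0.07, -0.10 and -0.05 over all genes. No member passed in any of them, and almost no gene did (0%, 0.0189% and 0% of all genes). An unadjusted p below 0.05 was found for 4, 6 and 10 members, and DESeq2 called 0, 1 and 1, both toward a lower change in MG than in BMDM. In the IR and IR+BLZ945 tests Ifnb1, with very few reads in BMDM of vehicle, pointed lower and had edgeR's smallest p among the members. The gene behind each DESeq2 call is not named here, so these calls are not read for or against the medians. Ifitm3 had the smallest p under BLZ945 (1.83, SE 0.74, adjusted p = 1), Usp18 under IR after Ifnb1 (1.31, SE 0.53, adjusted p = 0.872) and Ifi35 under IR+BLZ945 after Ifnb1 (1.11, SE 0.34, adjusted p = 1). At 5 days none passed for BLZ945 (1.65% of all genes; median 0.84; 8 at an unadjusted p below 0.05 and 1 by DESeq2) or IR (0.0755% of all genes; median -0.54; 4 at an unadjusted p below 0.05 and none by DESeq2). Only Ifnb1 did for IR+BLZ945 (2.56%; 0.358% of all genes).

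**Figure D4:**
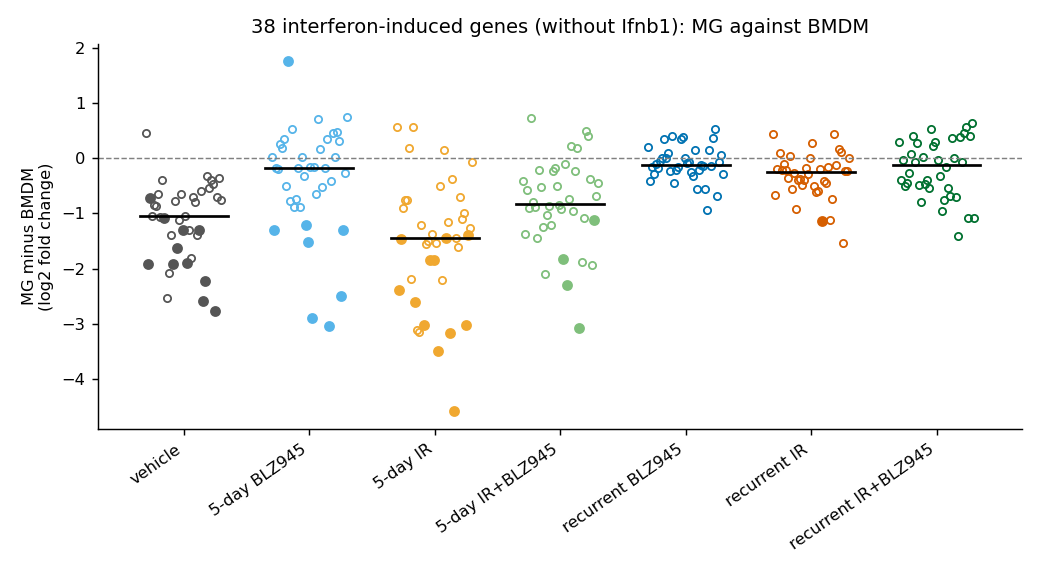
Fitted log2 difference MG minus BMDM (vertical axis) at each stage for 38 of the genes, Ifnb1 being left out for its near-zero counts; filled points passed at an adjusted p below 0.05, open ones did not, and the bar is the median. The medians run from -1.45 at 5-day IR and -1.04 in vehicle to between -0.25 and -0.12 in the recurrences.

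Ifnb1, the 1 ligand of the set, was the member with the clearest changes, on small counts. MG of vehicle held 43, 51, 119 and 25 reads, and BMDM of vehicle 2, 1, 0 and 0. Ifnb1 was thus 89.0-fold higher in MG of vehicle than in BMDM (95% counting interval 30.1 to 435; adjusted p = 0.00122), opposite to the induced genes. BLZ945 for 5 days left 2, 39, 7 and 11 reads in MG and none in any BMDM library, and MG were at least 21.2-fold higher (floor of 3 counts over the group; adjusted p = 0.00278). After 5 days of IR, MG held 29 and 26 reads and BMDM 6 and 0.

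After 5 days of IR and BLZ945 no read of Ifnb1 was found in any of the 3 MG libraries, at least 34.9-fold lower than in vehicle (adjusted p = 0.00811) and at least 11.2-fold lower than under BLZ945 alone (adjusted p = 0.0307). Against IR alone it was at least 18.2-fold lower, which did not pass (adjusted p = 0.0847). BMDM of these mice held 14, 0 and 0 reads, all from mouse 65696, and the change from vehicle differed between the populations (adjusted p = 0.0258). That call held in 3 of 7 fits that left out 1 mouse, and without mouse 65696 its adjusted p was 1. The fall in MG against vehicle held in all 7 fits that left out 1 library.

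In recurrence Ifnb1 was present in both populations. IR recurrence held 645, 57, 317 and 349 reads in MG and 787, 182, 255 and 273 in BMDM. Pooled over mice and scaled for depth, BMDM reads were 577-fold those of vehicle (95% counting interval 197 to 2800, adjusted p = 0.0124, and 0.0252 to 0.0486 when 1 library was left out). Within BMDM the gene passed the low-count filter only through the recurrent libraries. Its adjusted p values in the BMDM fit are therefore no separate support for a rise. In the same BMDM libraries the summed glioma and oligodendrocyte precursor markers were 161 to 371 CPM against 9.99 to 19.6 in vehicle, choroid plexus markers 14.7 to 37.9 against 0.0651 to 0.978, neuron markers 14.7 to 36.3 against 2.92 to 5.47, and conventional dendritic cell markers 78.1 to 157 against 792 to 1300. Malat1 was 7.74 to 8.62 log2 CPM against 11.32 to 13.20. No marker of these 4 lists was at 0 in IR recurrence, and their part in the rise was not tested. In MG the change from vehicle in IR recurrence did not pass (2.61 on the log2 scale, adjusted p = 0.0619). IR+BLZ945 recurrence held 85, 111, 106 and 194 reads in MG, at least 108-fold above 5 days of the same treatment (adjusted p = 0.00103), and 129, 424, 29 and 86 in BMDM, a ratio of 288 to vehicle (95% counting interval 98.1 to 1400) that did not pass (adjusted p = 0.0878; DESeq2 1.37e-05). BLZ945 recurrence held 16 and 261 reads in MG and 7 and 66 in BMDM, a spread between mice in which the BMDM ratio of 68.1 to vehicle (interval 22.4 to 338) did not pass (adjusted p = 0.315). Against 5-day BLZ945 the gene was higher in recurrence in MG (2.96, SE 0.89, adjusted p = 0.0454) and, at least 50.7-fold, in BMDM (adjusted p = 0.0191), and neither passed without mouse 70696 (adjusted p = 0.953 and 0.187). The MG call passed in 2 of 6 fits that left out 1 library (lost also without mouse 122, 124 or 65975) and the BMDM call in 5 of 6. In IR recurrence it was also higher than at 5-day IR, in MG (3.59, SE 1.09, adjusted p = 0.0382) and in BMDM (adjusted p = 0.0355), where 6 and 0 reads had been counted. Each of these calls passed in only 1 of 6 fits that left out 1 library, the fit without recurrent mouse 68344. In the recurrent stages MG and BMDM did not differ beyond their spread (adjusted p = 1, 1 and 0.984). The intervals and floors cover counting error only: reads were amplified and carry no molecular identifiers, so each is not a separate molecule.

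**Figure D5:**
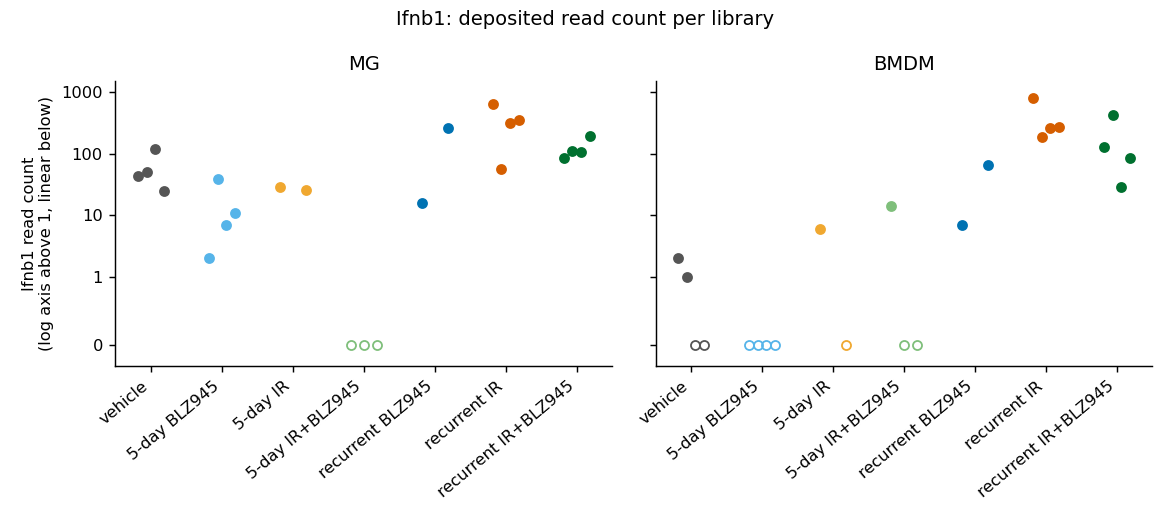
Deposited Ifnb1 read counts (vertical axis, logarithmic above 1) in every library by stage, for MG (left) and BMDM (right); open circles are libraries without a read. MG are at 25 to 119 in vehicle and at 0 in all 3 libraries of 5-day IR+BLZ945, and BMDM go from 0 to 2 in vehicle to 182 to 787 in IR recurrence.

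The rest of the pathway was read from lists that share no gene with the set. Of 20 other interferon genes (alpha, gamma, lambda and related types), none was abundant enough to be tested in MG and 2 were in BMDM. Ifna4, an interferon alpha, held 1 read in all BMDM of vehicle and 78 in BMDM of IR recurrence, in all 4 mice with a highest count of 54. It could pass the low-count filter only through libraries where it was higher. Its adjusted p of 0.0495 in the edgeR test is therefore no separate support for a rise. Ifng, the gene of interferon gamma, made by T and NK cells, held 86 reads in BMDM of vehicle and 92 in BMDM of 5-day BLZ945, against 1 and 0 in MG. Of the 6 receptor chains none passed in MG recurrence against vehicle, and Ifnar1, the type I receptor chain, lay at 6.66 to 7.53 in MG of vehicle and at 6.45 to 7.18 in the 10 recurrent libraries. Ifnar1 was lower in MG than in BMDM of vehicle (-1.16, SE 0.30, adjusted p = 0.00921). Ifngr1, of the interferon gamma receptor, was lower in recurrence than at 5 days in MG (-1.87 for BLZ945, -1.49 for IR and -0.78 for IR+BLZ945), with adjusted p of 0.00149, 0.00329 and 0.0334. Il10rb, shared by the interleukin-10 and lambda receptors, rose in MG at 5-day IR+BLZ945 (0.84, SE 0.27, adjusted p = 0.0450).

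Of 13 receptor signalling genes none passed in MG against vehicle at any stage, and their medians in recurrence were -0.11, -0.26 and -0.19. Of 15 genes that sense nucleic acids or relay the signal to interferon, none passed in MG recurrence against vehicle (medians 0.02, 0.02 and -0.16), and Tlr9 and Aim2, sensors of DNA, fell in MG at 5-day IR+BLZ945 (-2.08 and -1.08, adjusted p = 0.0337 and 0.0141). In BMDM, Trex1, a DNA exonuclease, rose after 5 days of BLZ945 (1.48, adjusted p = 0.0232) and Tlr7 and Ifi204 fell (-1.86 and -1.28, adjusted p = 0.00796 and 0.0475).

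A further list of interferon-induced genes outside the set, 46 of them tested in MG, had medians of 0.77, 0.50 and 0.69 in the 3 MG recurrences. In it 1, 0 and 3 genes rose and none fell, while 3.53%, 4.33% and 4.82% of all genes passed in either direction. The first and second counts are at or near the background. In IR+BLZ945 recurrence 297 of all genes tested were higher and 404 lower. Oas1g, a paralog of Oas1a whose reads may be shared with it, rose in BLZ945 recurrence (2.93, SE 0.66, adjusted p = 0.0157) and in IR+BLZ945 recurrence (2.39, SE 0.58, adjusted p = 0.0270). Ifi27l2a, a mitochondrial interferon-induced protein, was 9.59 to 9.85 in IR+BLZ945 recurrence against 5.69 to 8.55 in vehicle (1.78, SE 0.48, adjusted p = 0.0366), and the gene listed as Gm4902 rose by 1.01 (SE 0.28, adjusted p = 0.0395). Ifi27l2a fell in MG at 5-day IR, to 2.72 and 5.52 (-3.14, SE 0.67, adjusted p = 0.0162), and at 5-day IR+BLZ945, to 5.86 to 6.42 (-1.60, SE 0.53, adjusted p = 0.0472). Between the populations in vehicle 47 genes of this list were tested, and 15 were higher in BMDM and none lower (9.14% of all genes passed in either direction), led by Ifitm1, Ifi205, Tgtp1 and Slfn1, for which MG minus BMDM was -5.25, -5.06, -4.64 and -4.55. In BMDM after 5 days of BLZ945, 4 of its 47 tested genes rose and 2 fell (5.51% of all genes passed). Those that rose were Trim34a (1.90, adjusted p = 0.0481), Tap1, a subunit of the peptide transporter (1.74, adjusted p = 0.00256), and the immunoproteasome subunits Psmb9 and Psmb8 (1.45 and 1.12, adjusted p = 0.00628 and 0.0104), and those that fell were Gbp7 (-1.47, adjusted p = 0.0496) and Lgals9 (-0.94, adjusted p = 0.0149).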

How the data were processed

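RNA was measured by Smart-Seq sequencing in 46 libraries. Per the submitters' processing notes the tools were CASAVA 1.8, STAR 2.5.0e, HTSeq and DESeq2, with build mm10; the annotation and strand setting are not given in the sources used here. The deposited values are raw read counts for 23329 gene symbols, with totals of 3007379 to 16993474. Members and gene lists were chosen with earlier results of these data known.

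Counts were tested with edgeR 4.0.16 in R 4.3.3 (TMM, robust quasi-likelihood, filterByExpr with a minimum count of 10 and total of 15), in 1 fit over the 7 stages for MG (14534 genes), 1 for BMDM (14568) and 1 over both for the population comparisons (15901). Benjamini-Hochberg adjustment ran over all genes of a fit, in 35 comparisons. Named genes are up to 6 members that passed with the largest change (4 outside vehicle and population comparisons), otherwise up to 2 with the smallest p, beside 7 members followed throughout. The edgeR test was tried on simulated MG counts for 1 comparison. The other steps were not tried on simulated counts. Alternatives were DESeq2 1.42.0, RLE size factors, no filter, fits without doubted libraries or 1 library, 1 joint fit, and terms for number style, sex-linked profile and mouse. MG and BMDM with the same number are labelled as 1 animal, though the sex-linked transcripts of mouse 65698 go against its label. The deviations of MG and BMDM with the same number correlated at -0.09 to 0.44 (median 0.15). No 2 libraries of a group agreed within sampling noise. Results for 1 gene of the pathway lists are not reported here.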

Additional observations from a re-analysis of the deposited data

Results flagged for a closer look

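In groups of 4 mice, a library was singled out where its gap to the nearest other library took up nearly the whole range of the group. This happened in 26 of 320 groups of values, in 20 genes, and chance alone gives about 1 in 20. Of these, 10 were low values of mouse 65975 in MG after 5 days of BLZ945: Irf1 at 5.34 log2 CPM (others 9.10 to 9.59), Ifih1 at 4.35 (5.46 to 5.67), Zbp1 at 4.11 (6.28 to 6.37), Oas1a at 4.95 (6.41 to 6.60), Oas3 at -1.88 (4.27 to 4.74), Usp18 at 4.86 (6.09 to 6.23), Rtp4 at 4.63 (6.53 to 6.91), Gbp3 at 3.13 (6.10 to 6.60), Irgm1 at 6.22 (7.87 to 8.20) and Xaf1 at 2.84 (5.76 to 5.96). In BMDM of the same mouse Irf7 was low at 7.58 (8.96 to 9.05), and so was Gbp2 at 4.38 (7.25 to 7.37).

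In BMDM of vehicle mouse 65967, 4 genes were low: Ddx58 at 5.21 (others 6.25 to 6.34), Oas3 at -0.72 (5.10 to 6.03), Trim30a at 6.56 (7.64 to 7.70) and Slfn5 at 4.20 (6.62 to 7.10). Vehicle mouse 65966 was high in BMDM for Bst2, at 8.70 (7.64 to 7.82), and vehicle mouse 78 low in MG for Ddx58, at 4.95 (5.28 to 5.32). BMDM of mouse 124 after 5 days of BLZ945, a library with few detected genes, were low for Eif2ak2 at 2.21 (3.99 to 4.20) and Cmpk2 at 3.76 (5.5 to 5.82).

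In IR recurrence, mouse 68343 was high for Xaf1 in BMDM at 5.97 (4.60 to 4.82) and for Rtp4 in MG at 7.14 (6.49 to 6.58), and mouse 68345 was low for Mx1 in MG at 4.33 (5.02 to 5.10). In IR+BLZ945 recurrence, Gbp3 was high in BMDM of mouse 68362 at 6.87 (5.88 to 6.04), while in MG Usp18 was low in mouse 67169 at 6.36 (7.10 to 7.22) and Parp14 in mouse 67543 at 2.86 (3.89 to 4.07).

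The response of Ifnb1 to 5 days of IR+BLZ945 differed between the populations by a test of the difference itself (MG minus BMDM, fitted at -11.86 on the log2 scale, edgeR's quasi-likelihood test, adjusted p = 0.0258). Both arms rest on libraries without any Ifnb1 read, so the fitted size is no bound.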

How the results depend on the processing

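Counts of members that passed are given as main value and value under the alternative. No named gene that passed in the main fit or in an alternative had opposite directions in the 2 fits. Changes of direction in genes that passed in neither were not counted. Of 103 calls only 21 held in every fit that left out 1 library or mouse. DESeq2 gave more calls in MG against vehicle (5-day BLZ945 0 and 5, 5-day IR 0 and 3, recurrent BLZ945 2 and 7, recurrent IR 1 and 6, recurrent IR+BLZ945 5 and 11) and for IR+BLZ945 against IR at 5 days (0 and 7). In BMDM DESeq2 gave 2 (5-day IR), 1 (recurrent BLZ945), 2 (recurrent IR), 1 (recurrent IR+BLZ945), 5 (recurrent against 5-day IR+BLZ945), 3 (5-day IR+BLZ945 against BLZ945) and 2 (against IR), and 1 each in the response differences of 5-day BLZ945, recurrent IR and recurrent IR+BLZ945. RLE size factors gave 0 for MG against BMDM in recurrent IR and moved the median of all genes by at most 0.15. Without a filter MG gave 1 (5-day BLZ945), 1 (recurrent BLZ945), 3 (recurrent IR+BLZ945) and 2 (5-day IR+BLZ945 against BLZ945), and BMDM 0 in the last. One fit over all libraries gave in MG 1 (5-day IR), 0 (recurrent IR), 3 (recurrent IR+BLZ945), 2 (recurrent against 5-day BLZ945) and 3 (5-day IR+BLZ945 against BLZ945), and in BMDM 2 (recurrent IR), 1 (recurrent IR+BLZ945), 2 (recurrent against 5-day IR+BLZ945), 0 (5-day IR+BLZ945 against BLZ945) and 2 (against IR). A term for number style gave in MG 9, 6 and 9 in the 3 recurrences and 0 for 5-day IR+BLZ945 against BLZ945, and in BMDM 0 (5-day BLZ945), 0 (recurrent against 5-day BLZ945), 2 (the same for IR+BLZ945), 0 (5-day IR+BLZ945 against BLZ945) and 2 (against IR). The sex-linked term, chosen after seeing the data, gave 4 and 3 in MG recurrent BLZ945 and IR, 3 in MG for 5-day IR+BLZ945 against BLZ945 and 0 for the same in BMDM. Without the doubted libraries MG gave 4, 8, 9 and 13 (5-day BLZ945 and the 3 recurrences), 6 (recurrent against 5-day IR+BLZ945) and 0 (5-day IR+BLZ945 against BLZ945). BMDM then gave 1 (5-day BLZ945), 2 (5-day IR+BLZ945), 2 (recurrent IR), 1 (recurrent IR+BLZ945), 6 (recurrent against 5-day IR+BLZ945) and 0 (5-day IR+BLZ945 against BLZ945). MG against BMDM in vehicle gave 21. The 5-day IR groups kept 1 library each, so no count is given for their comparisons. The cause of these moves was not tested.

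Leaving out 1 library gave, in MG against vehicle, 0 to 8 (5-day BLZ945), 0 to 4 (5-day IR), 1 to 1 (5-day IR+BLZ945), 0 to 1, 0 to 1 and 0 to 8 (recurrences); in MG recurrent against 5-day, 0 to 4, 0 to 11 and 5 to 11; in 5-day IR+BLZ945 MG, 0 to 10 against BLZ945 and 0 to 4 against IR. In BMDM it gave 1 to 7 (5-day BLZ945), 0 to 4 (5-day IR), 1 to 2 (recurrent IR), 0 to 5, 0 to 9 and 0 to 2 (recurrent against 5-day), and 0 to 5 and 0 to 3 (5-day IR+BLZ945 against BLZ945 and IR). Leaving out 1 mouse gave 4 to 9, 6 to 9, 4 to 8, 1 to 2 and 0 to 0 for MG against BMDM in vehicle, the 3 5-day stages and recurrent IR, and 0 to 1 for the response differences of 5-day BLZ945 and 5-day IR+BLZ945. A group left with 1 library was assumed to vary like the others.

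With the mouse as a replicate block, 15 members passed between MG and BMDM in vehicle (12 without it), and no count moved by over 1.5 times; Slfn5 in vehicle no longer passed (adjusted p = 0.0718). No paired analysis was possible within a population because each mouse has 1 library there. The shallow MG library of mouse 65971, with few detected genes, limits statements on low values at 5-day IR+BLZ945.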
